A study of Mus musculus with 4 samples.

Results

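Placental lactogens and proliferins are secreted hormones of the prolactin family, which in rodents has expanded into a cluster of genes expressed mainly in trophoblast cells of the placenta and in the maternal decidua. Placental lactogens bind the prolactin receptor and take over from pituitary prolactin during pregnancy. Placental lactogen I (Prl3d genes) is made by trophoblast giant cells early after implantation and gives way around midgestation to placental lactogen II (Prl3b1), which is made until term. Proliferins (Prl2c genes) are made by giant cells and promote the growth of maternal blood vessels, in part through the mannose 6-phosphate/IGF2 receptor. None of these hormones is known as a product of the adult liver.

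The genes described here are 10 of the 27179 genes in the count tables of a mouse liver series. They are Prl3b1, Prl3d1, Prl3d2 and Prl3d3, which encode lactogens, Prl2c2, Prl2c3 and Prl2c5, which are copies of proliferin, and Prl2a1, Prl2b1 and Prl3a1, which encode prolactin-like proteins. They were found by symbol and Entrez identifier, and they had been chosen by their measured counts in non-fasted against fasted libraries of these same data. Their difference between the groups is therefore described without a test.

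The series compared livers of C57BL/6 wild type mice that had been fasted overnight with free access to water with livers of mice of the same genotype that had not been fasted, by bulk RNA sequencing with 2 libraries per group. All 4 libraries are labelled male, and the protocol states that mice were matched for age and sex. The sources used here give neither ages nor the number of mice behind each library. Groups follow the sample titles, because the treatment field reads fasted for all 4 libraries.

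The fasted libraries held 13541405 and 13528015 counts, and the non-fasted libraries 36975921 and 36943535 counts. Both pairs differed slightly beyond sampling noise, with a chi-square per degree of freedom of 1.12 over 13348 genes in fasted and 1.13 over 17211 genes in non-fasted libraries, so each library was kept as a sample. Nothing states that the libraries of a group came from separate mice, so the p-values below measure only the spread between libraries, which may be technical. All libraries are labelled liver, and hepatocyte markers were present in all of them, but the non-fasted libraries also held genes of the placenta at high levels, a tissue that the labels do not name. What the non-fasted libraries hold besides liver was not tested, so differences are given between libraries and not between livers. Levels are given in CPM, counts scaled to a library total of 1000000. The 14 hepatocyte markers summed to 119765 and 120031 CPM in fasted, against 47091 and 46812 CPM in non-fasted libraries. Xist, the RNA of the inactive X chromosome in female cells, had 2 and 1 counts in fasted, against 25772 and 26316 counts in non-fasted libraries, which goes against the male label of the non-fasted libraries. Whatever differed between the sources of the libraries besides feeding cannot be told apart from feeding.

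The sequences of the copies show how finely the counts can be read, and are therefore given before them. Below are 60 coding bases of each of the 3 proliferin copies, all on mouse chromosome 13, from GENCODE M21 transcripts (build GRCm38). The stretch was picked, among those without gaps, for the most differences between Prl2c2 and Prl2c3 and then among all 3. It holds coding bases 306 to 365 of Prl2c2 and Prl2c3 and 315 to 374 of Prl2c5. Capitals mark the 7 positions that are not the same in all 3.
Prl2c2: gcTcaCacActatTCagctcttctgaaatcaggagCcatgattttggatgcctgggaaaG
Prl2c3: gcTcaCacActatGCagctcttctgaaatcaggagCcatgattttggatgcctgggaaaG
Prl2c5: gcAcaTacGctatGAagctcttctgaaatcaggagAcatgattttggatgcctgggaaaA
In this stretch Prl2c2 and Prl2c3 differed at 1 position. Over the whole coding sequence they differed at 3 positions and were 99.6% identical. Prl2c5 was 93.0% identical to Prl2c2 and 92.8% identical to Prl2c3.

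For the 3 copies of placental lactogen I, a stretch was picked in the same way, by Prl3d1 and Prl3d2 first. It holds coding bases 67 to 126, with capitals at the 3 positions that vary among them.
Prl3d1: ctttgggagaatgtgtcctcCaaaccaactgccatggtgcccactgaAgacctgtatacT
Prl3d2: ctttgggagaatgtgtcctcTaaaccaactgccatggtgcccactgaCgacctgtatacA
Prl3d3: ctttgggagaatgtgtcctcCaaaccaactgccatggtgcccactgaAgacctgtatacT
Prl3d1 and Prl3d3 were the same here. Over the whole coding sequence the pairs of Prl3d copies were 97.9% to 98.7% identical. The lactogens of the 2 stages were far apart, with 61.4% identity between Prl3b1 and Prl3d1, and the least alike pair of all 10 genes was Prl2c5 and Prl3b1 at 51.8%.

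A read can be assigned to a copy only where its bases occur in no other gene. Of all windows of 100 bases in the transcripts of each gene, 33.7% of those of Prl2c2, 37.7% of those of Prl2c3 and 90.7% of those of Prl2c5 occurred in no other gene. The shares were 73.2% for Prl3d1, 51.3% for Prl3d2 and 57.5% for Prl3d3. For Prl2a1, Prl2b1, Prl3a1 and Prl3b1 every such window was found in that gene alone. With windows of 50 bases the shares of the copies dropped to between 10.5% for Prl2c2 and 60.4% for Prl2c5. The sources used here give neither the read length nor how reads that match several genes were treated, so the split of counts among Prl2c copies and among Prl3d copies is uncertain. Sums over copies are given beside it, but these fall short as well if such reads were dropped.

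**Figure D1:**
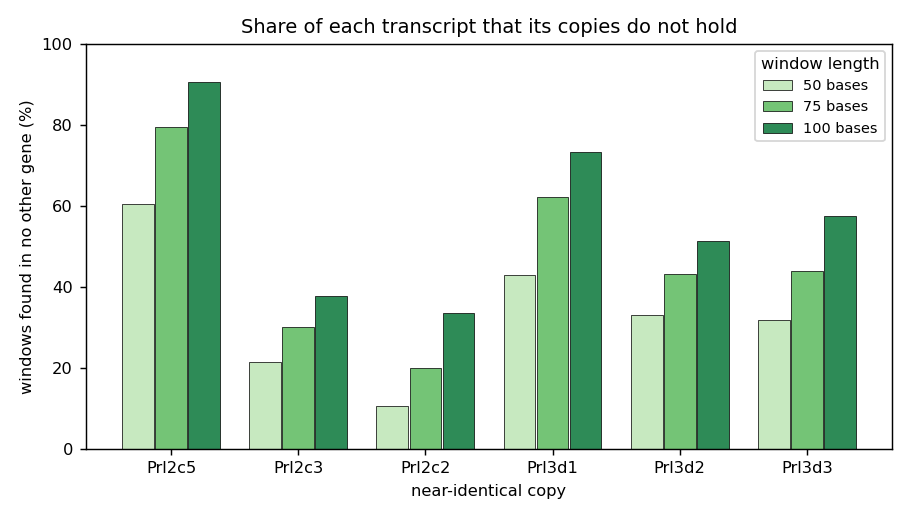
Share (%) of the windows of 50, 75 and 100 bases in each proliferin (Prl2c) and placental lactogen I (Prl3d) copy that occur in no other annotated gene. The bars of Prl2c5 are the tallest at every window length, and those of Prl2c2 the shortest, with 33.7% at 100 bases.

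Almost no count of the 10 genes was found in fasted libraries. Together they had 2 counts and 1 count in fasted libraries, against 528511 and 532230 counts in non-fasted libraries. The late lactogen Prl3b1 was by far the most abundant of them, and the early lactogen Prl3d1 was rare. Both fasted libraries lay below both non-fasted libraries for each of the 10 genes, as they did for 48.5% of all 27179 genes. In the test across all genes (edgeR's quasi-likelihood test with median-of-ratios scaling), 8 of the 10 genes passed the filter on low counts and 8 were called lower in fasted libraries, and both were fixed by the choice of the genes. Of all 15470 genes tested, 45.0% were called lower and 37.2% higher. Scaled to the 14 hepatocyte markers, 13964 genes were called lower and 703 higher, and scaled to total counts 9694 lower and 3551 higher.

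Prl3b1 had 1 and 0 counts in fasted libraries, against 371326 and 374066 counts in non-fasted libraries. Its ratio of CPM, non-fasted over fasted, was 272964, with an exact 95% counting interval from 48991 to 10781506 because it rests on a single fasted count. In the non-fasted libraries it averaged 10084 ± 58.7 CPM (SD, n = 2) and was the sixth most abundant of all genes in both, where it alone took 1.004% and 1.013% of all counts (Wilson 95% intervals 1.001 to 1.007% and 1.009 to 1.016%). Counting intervals throughout cover counting error only.

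The prolactin-like proteins followed. Prl2a1, also known as prolactin-like protein M, had 1 and 0 counts in fasted libraries, against 50213 and 49979 counts in non-fasted libraries, where it averaged 1355 ± 3.64 CPM (SD, n = 2). Prl2b1, or prolactin-like protein K, had 0 and 1 counts in fasted libraries, against 39597 and 39964 counts in non-fasted libraries, where it averaged 1076 ± 7.69 CPM. Both genes had 1 fasted count in total, in opposite fasted libraries. Prl3a1, or prolactin-like protein I, had no count in either fasted library, against 16192 and 16097 counts in non-fasted libraries. With the floor for a count of 0 set at 3 counts over both fasted libraries, Prl3a1 was at least 3941-fold lower in fasted libraries.

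Among the proliferin copies, Prl2c5 had the most counts, with 0 and 0 in fasted, against 34663 and 35360 in non-fasted libraries, at least 8548-fold lower in fasted libraries. Prl2c3 had 0 and 0 counts in fasted libraries, against 16078 and 16326 counts in non-fasted libraries, at least 3955-fold lower. Prl2c2, whose product is the proliferin usually named as a giant cell marker, had 0 and 0 counts in fasted libraries, against 265 and 269 counts in non-fasted libraries, at least 65.2-fold lower. The counts of its near-identical partner Prl2c3 were 60.7 times as high in both non-fasted libraries. Per window of 100 bases found in no other gene, the non-fasted libraries held 1.06 and 1.08 counts of Prl2c2, 56.2 and 57.1 counts of Prl2c3 and 43.8 and 44.7 counts of Prl2c5, so Prl2c3 came out above Prl2c5 on this scale and below it in raw counts. The 3 copies summed to no count in fasted, against 51006 and 51955 counts in non-fasted libraries. This sum and the Prl2c sums below leave out Prl2c1, which is 92.4% identical to Prl2c2 in coding sequence. Prl2c1 had 2602 and 2528 counts in non-fasted libraries and is given with the other family genes.

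The copies of placental lactogen I were scarce even where the other genes were high. Prl3d1 had 0 and 0 counts in fasted libraries, against 159 and 146 counts in non-fasted libraries, at least 37.2-fold lower in fasted libraries. Prl3d2 had 0 and 0 counts in fasted libraries, against 7 and 14 counts in non-fasted libraries, whose exact Poisson intervals of 2.81 to 14.4 and 7.65 to 23.5 counts overlapped. Prl3d3 had 0 and 0 counts in fasted, against 11 and 9 counts in non-fasted libraries. These last 2 genes did not pass the filter and were not tested, and against the floor their fasted levels were at least 2.56-fold and 2.44-fold lower. At a mean of 0.284 and 0.271 CPM in the non-fasted libraries, both lay close to what the depth of the shallower fasted libraries could show.

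**Figure D2:**
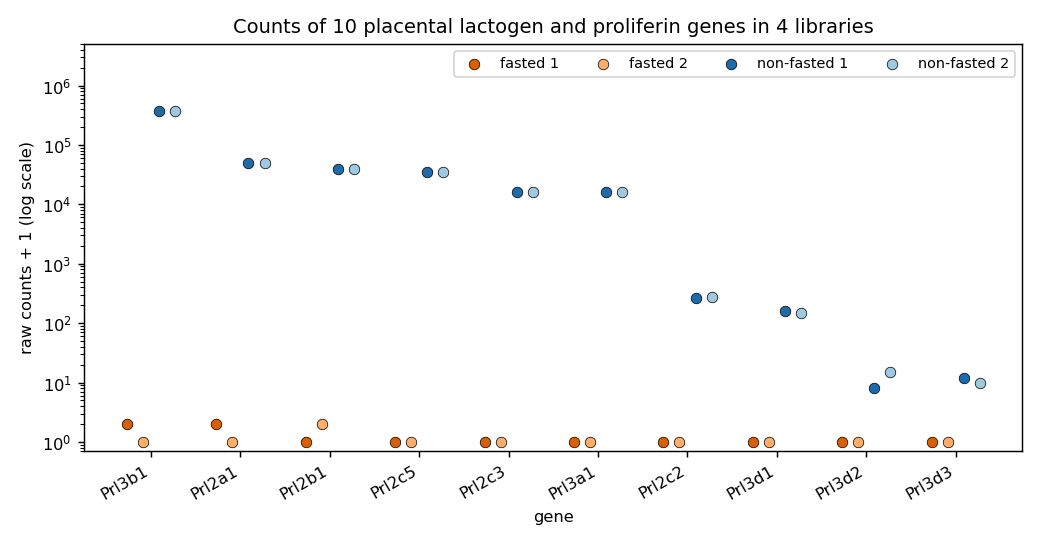
Raw counts plus 1 (log axis) of the 10 genes in the 2 fasted and the 2 non-fasted libraries, with 1 point per library. The fasted points stand at 0 or 1 count for every gene, and the non-fasted points spread from 7 counts of Prl3d2 to 374066 counts of Prl3b1, with the 2 non-fasted libraries close together except for Prl3d2.

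As a share of the library, the 10 genes took 1.48e-05% and 7.39e-06% of the counts in fasted libraries, against 1.43% and 1.44% in non-fasted libraries (Wilson 95% intervals 1.426 to 1.433% and 1.437 to 1.445%). In bulk RNA, fewer cells of a type and less RNA per cell cannot be told apart. Leaving out the 20 most abundant genes of the series, Prl3b1 among them, the other 9 genes took 0.517% and 0.521% of the remaining non-fasted counts.

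The relative amounts of the 10 genes in the non-fasted libraries were the same in both libraries within sampling noise (chi-square 11.5 with 9 degrees of freedom, p = 0.243, a comparison of these libraries only). When the rest of the library was added as a further class, the libraries differed (chi-square 28.2 with 10 degrees of freedom, p = 0.00165). Prl3b1 made up 70.3% of the counts of the 10 genes in both libraries. The Prl2c copies made up 9.65% and 9.76%, Prl2a1 9.50% and 9.39%, Prl2b1 7.49% and 7.51%, and Prl3a1 3.06% and 3.02%. The Prl3d copies made up 0.0335% and 0.0318%.

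Ratios between lactogens and proliferins within a library do not depend on the scaling between libraries, but they do depend on how reads shared by several genes were counted. In the non-fasted libraries, counts of the late lactogen Prl3b1 were 2098 and 2213 times those of the summed Prl3d copies (exact 95% intervals 1811 to 2445 and 1904 to 2589). Prl3b1 was also 7.280 and 7.200 times as abundant as the summed Prl2c copies, which in turn had 288 and 307 times the counts of the Prl3d copies. With the copies scaled up for shared windows of 50 bases, Prl3b1 was at 871 and 910 times the Prl3d copies and at 2.75 and 2.72 times the Prl2c copies. With windows of 100 bases it was at 1486 and 1544 times the Prl3d copies and at 4.55 and 4.50 times the Prl2c copies. Among the Prl3d copies, Prl3d1 had 8.83 and 6.35 times the counts of the other two together, with overlapping intervals of 5.41 to 15.3 and 4.07 to 10.3. The labels give no pregnancy and no stage, and which stage these ratios fit was not tested.

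To compare levels between genes, CPM were divided by coding length in kilobases. In the non-fasted libraries, the level of Prl3b1 was 15141 ± 88.1 CPM per kb (SD, n = 2), 7.64 times that of the next gene, Prl2a1, at 1982 ± 5.32 CPM per kb. Prl2b1 at 1527 ± 10.9, Prl2c5 at 1403 ± 20.6, Prl2c3 at 652 ± 7.46 and Prl3a1 at 641 ± 2.27 CPM per kb came next. Prl2c3 and Prl3a1 were not separated on this scale, where their counting intervals overlapped, but per kilobase of transcript Prl2c3 had 507 and 516 CPM and Prl3a1 326 and 325 CPM. A gap of 59.7-fold followed to Prl2c2 at 10.8 ± 0.121 CPM per kb. Prl3d1 had 6.17 ± 0.368, Prl3d2 0.425 ± 0.200 and Prl3d3 0.404 ± 0.0569 CPM per kb, and the ranges of these last 2 overlapped. The order was the same by plain CPM and per kilobase of transcript, and in the first non-fasted library alone only Prl3d2 and Prl3d3 changed places. It did change when the counts of each copy were scaled up by all windows over those found in no other gene, as if reads that match several genes had been dropped. With windows of 100 bases Prl2c3 came in the third place and Prl2c5 in the fourth, both above Prl2b1, and with windows of 50 bases they came in the second and the third place, both above Prl2a1.

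Of 17 other prolactin family symbols looked up, 16 matched a gene in the tables. Prl2c4 did not, and the RefSeq names give it as a synonym of Prl2c3, which is among the 10 genes. In the test across all genes, 15 of these 16 were tested and 15 were called lower in fasted libraries, where 45.0% of all genes were. Of the 15, 13 had no fasted count and the others a single one, so they passed the filter only through the non-fasted libraries and the call was fixed by that. The median log2 fold change of these 15 was -14.44, or -9.57 with the 13 genes that had no fasted count set at their bound, against -0.13 over all genes tested. Prl8a9 had 0 and 1 counts in fasted libraries, against 210817 and 212871 counts in non-fasted libraries, and Prl8a6 had 1 and 0 counts in fasted, against 164655 and 166563 counts in non-fasted libraries. Prl8a2, the decidual prolactin-related protein, had no fasted count, against 76510 and 78124 counts in non-fasted libraries. Prl7d1, the proliferin-related protein that opposes vessel growth, had no fasted count, against 22280 and 22869 counts in non-fasted libraries.

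The other family genes with no fasted count ranged in non-fasted libraries from Prl6a1 with 184 and 177 counts to Prl8a8 with 69503 and 70802 counts. In between were Prl7a2 (49411 and 49103), Prl7b1 (25097 and 25048), Prl8a1 (4337 and 4467), Prl4a1 (3446 and 3556), Prl7c1 (3302 and 3406), Prl7a1 (2747 and 2735), Prl2c1 (2602 and 2528), Prl5a1 (1807 and 1879) and Prl3c1 (670 and 641). Pituitary prolactin itself, Prl, had 0 and 0 counts in fasted libraries, against 9 and 6 counts in non-fasted libraries, and was not tested. The 10 lactogen, proliferin and prolactin-like genes made up 45.3% and 45.2% of the family's counts in non-fasted libraries, and the family 3.15% and 3.19% of all counts there.

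**Figure D3:**
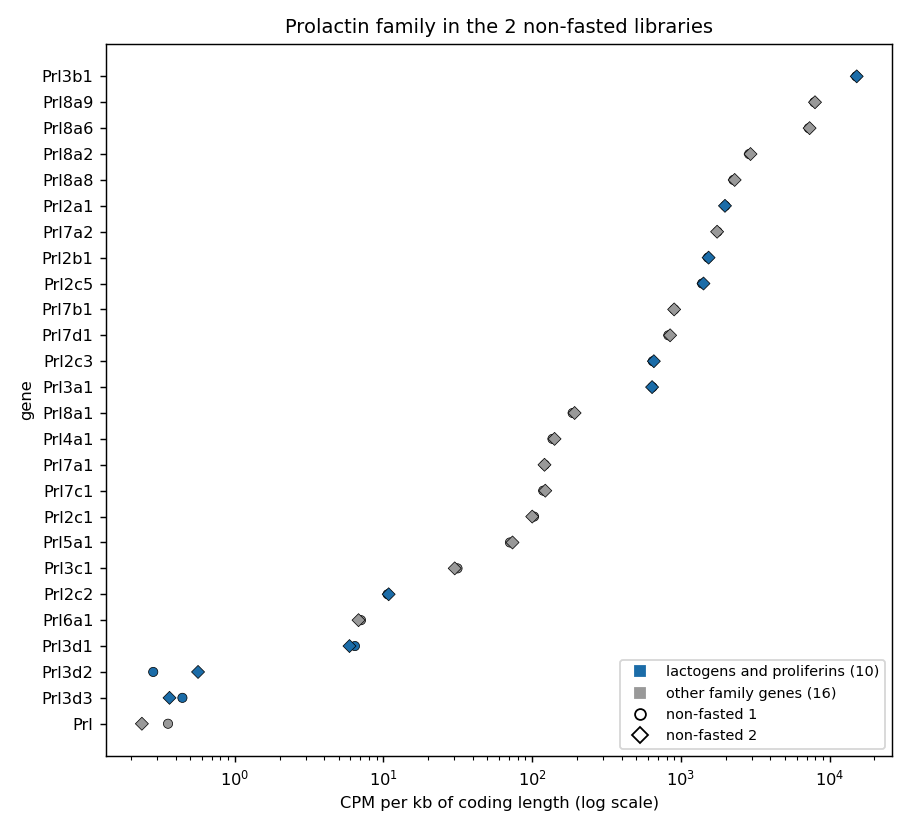
CPM per kb of coding length (log axis) of the 26 prolactin family genes in the 2 non-fasted libraries, with the 10 lactogen, proliferin and prolactin-like genes in blue and the other 16 in grey. Prl3b1 stands highest, and Prl3d2 and Prl3d3 stand near Prl, at the lowest levels.

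The transcription factors GATA2 and GATA3 and the AP-1 complex of Fos and Jun proteins are known to activate the placental lactogen I and proliferin promoters in trophoblast giant cells. The 250 bases before the transcription start (RefSeq, build GRCm38.p6) are shown for 4 genes, chosen because they include the most abundant gene, 2 near-identical copies and the early lactogen, with motif matches in capitals. The letters TGANTCA were searched for AP-1 on both strands. For GATA factors AGATAA was searched on both strands, and so was the variant that starts with a T, TGATAA. Matches of these motifs did not overlap.
Prl3b1, chr13:27242180-27242429, plus strand: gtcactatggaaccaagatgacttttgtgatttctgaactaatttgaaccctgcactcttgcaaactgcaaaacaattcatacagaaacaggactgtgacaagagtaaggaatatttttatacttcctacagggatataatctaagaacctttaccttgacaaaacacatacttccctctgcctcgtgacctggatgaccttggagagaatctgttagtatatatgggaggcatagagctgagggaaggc
Prl2c5, chr13:13182466-13182715, plus strand: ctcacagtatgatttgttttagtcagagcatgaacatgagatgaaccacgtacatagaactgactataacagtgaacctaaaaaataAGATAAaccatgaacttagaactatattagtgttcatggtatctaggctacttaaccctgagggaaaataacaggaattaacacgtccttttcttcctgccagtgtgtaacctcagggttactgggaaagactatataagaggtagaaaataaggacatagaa
Prl2c3, chr13:12800080-12800329, minus strand: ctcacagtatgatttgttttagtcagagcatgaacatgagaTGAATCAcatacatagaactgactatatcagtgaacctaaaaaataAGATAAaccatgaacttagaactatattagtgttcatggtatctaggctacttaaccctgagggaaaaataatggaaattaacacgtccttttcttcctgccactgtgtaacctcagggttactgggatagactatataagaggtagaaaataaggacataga
Prl3d1, chr13:27093939-27094188, plus strand: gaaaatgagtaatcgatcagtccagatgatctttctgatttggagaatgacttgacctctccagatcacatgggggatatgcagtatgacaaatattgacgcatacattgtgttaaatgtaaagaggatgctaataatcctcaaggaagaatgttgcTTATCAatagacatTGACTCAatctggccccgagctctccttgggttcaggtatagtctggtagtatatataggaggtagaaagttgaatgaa
The Prl3d1 window held a GATA match at -93 and an AP-1 match at -79, counted in bases from the transcription start. The windows of Prl3d2 and Prl3d3 held the same pair, at -110 and -96 in Prl3d2 and at -114 and -100 in Prl3d3. The Prl2c3 and Prl2c5 windows, 96.0% identical, shared an AGATAA at -163, and only that of Prl2c3 held an AP-1 match, at -209. Prl3a1 had an AP-1 match at -138, and Prl2b1 had GATA matches at -204 and -172 and an AP-1 match after the start, at 34. No such letters were found in the windows of Prl3b1 and Prl2a1, and Prl2c2 had no window in the table. Among 32851 RefSeq windows of 300 bases, 7.81% held TGANTCA, 11.2% AGATAA and 9.05% TGATAA. A match describes letters only, and binding was not measured.

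Of the 11 regulators of lactogen genes listed, 10 were tested and 10 were lower in fasted libraries, where 45.0% of all genes tested were. Of these 10, Hand1, Tfap2c and Fosl1 had no fasted count and passed the filter only through the non-fasted libraries. Their median log2 fold change was -5.39, or -4.70 with the 3 genes without a fasted count at their bound, against -0.13 over all genes tested. Hand1, a factor needed for giant cell formation, had 0 and 0 counts in fasted libraries, against 3584 and 3552 counts in non-fasted libraries. Gata2 had 12 and 13 counts in fasted libraries, against 1636 and 1614 counts in non-fasted libraries, and Gata3 had 2 and 3 counts in fasted, against 1589 and 1473 counts in non-fasted libraries. Of the AP-1 genes, Fos had 6 and 4 counts in fasted libraries, against 1040 and 1010 counts in non-fasted libraries, and Jun had 160 and 145 counts in fasted, against 3476 and 3260 counts in non-fasted libraries. Pou1f1, the factor that drives prolactin in the pituitary, had 0 and 0 counts in fasted libraries, against 4 and 1 counts in non-fasted libraries, and was not tested.

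Markers of other cell types moved with the 10 genes. All 6 giant cell markers, of which 3 are among the 10 genes, were lower in fasted libraries. Of these 6, 4 had no fasted count and passed the filter only through the non-fasted libraries, and 45.0% of all genes tested were lower. Of the other 3, Ctsq, a cathepsin of sinusoidal giant cells, had 0 and 2 counts in fasted libraries, against 15008 and 15196 counts in non-fasted libraries, and Ctsj, a cathepsin of giant cells, had 0 and 0 counts in fasted, against 45425 and 45192 counts in non-fasted libraries. Of the 5 spongiotrophoblast markers, 4 were tested and 4 were lower. Tpbpa, which defines this layer, had 3 and 0 counts in fasted libraries, against 764320 and 770857 counts in non-fasted libraries. Both sinusoidal giant cell markers, Ctsq and Lepr, were lower, with sums of 2.81 and 2.59 CPM in fasted, against 465 and 474 CPM in non-fasted libraries. The spongiotrophoblast list summed to 7.53 and 10.2 CPM in fasted, against 35534 and 35889 CPM in non-fasted libraries. In the non-fasted libraries Tpbpa made up 20671 and 20866 CPM of it and Tpbpb 13756 and 13906 CPM. Others on the list were low there, with 154 and 171 counts of Ascl2, and 13 and 16 counts of Phlda2, which was not tested. All 4 glycogen trophoblast markers were lower too, with sums of 8.42 and 7.84 CPM in fasted, against 1009 and 1011 CPM in non-fasted libraries.

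Lists of other placental and maternal cells had lower sums than the spongiotrophoblast list in non-fasted libraries. The lists differ in size and in the levels of their genes, so these sums do not measure amounts of cells. Of the 5 syncytiotrophoblast markers, 3 were tested, of which 2 were lower and Slc16a1, a lactate transporter, was higher by a log2 fold change of 0.14 (SE 0.034) but lower, by -1.64, with the libraries scaled to hepatocyte markers. Of the defining genes of this layer, Syna had 0 and 0 counts in fasted, against 65 and 69 counts in non-fasted libraries. Gcm1 had 0 and 0 counts in fasted, against 11 and 18 counts in non-fasted libraries, and Synb had no count in any library. Slc16a3, also on the list, had 2 and 1 counts in fasted, against 2309 and 2266 counts in non-fasted libraries. The list summed to 89.4 and 87.5 CPM in fasted, against 180 and 176 CPM in non-fasted libraries. Slc16a1 alone made up 89.3 and 87.4 CPM of it in fasted, and 115 and 113 CPM in non-fasted libraries. All 3 tested of 5 trophoblast stem cell markers were lower, with sums of 1.11 and 0.887 CPM in fasted, against 47.3 and 47.7 CPM in non-fasted libraries. Cdx2 alone made up 40.5 and 41.1 CPM of these non-fasted sums. Eomes had 36 and 27 counts there, and Sox2, not tested, 1 and 3 counts. Elf5, not tested either, went the other way, with 0.295 and 0.222 CPM in fasted, against 0.162 and 0.0812 CPM in non-fasted libraries. Of the 7 decidua markers, 6 were lower, among them Prl8a2 and Cryab, and Bmp2, a growth factor, was higher by 2.31 (SE 0.090). The list summed to 27.2 and 25.6 CPM in fasted, against 4583 and 4629 CPM in non-fasted libraries. Of the 6 pituitary markers, Gh and Cga were at 0 in every library, and the list summed to 0 and 0.222 CPM in fasted, against 0.838 and 1.002 CPM in non-fasted libraries. The part of these cell types in the counts of the 10 genes was not tested.

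The 10 other genes most like them were ranked by mean CPM in non-fasted libraries among the 11396 genes with at most 3 counts in each fasted library. They were Tpbpa, Tpbpb, Psg16, Ceacam11, Psg21, Psg23, 1600012P17Rik, Prl8a9, Psg27 and Prl8a6, of which 4 are pregnancy-specific glycoproteins (Psg). Their means ran from 4481 CPM for Prl8a6 to 20768 CPM for Tpbpa. With at most 10 counts allowed, 10 of these 10 were found again, and with no fasted count allowed 1 of 10, Ceacam11.

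The receptors of these hormones are genes that liver itself expresses. The prolactin receptor gene Prlr had 1044 and 1031 counts in fasted libraries, against 1041 and 956 counts in non-fasted libraries, or 77.1 and 76.2 CPM in fasted, against 28.2 and 25.9 CPM in non-fasted libraries. Its log2 fold change was 2.01 (SE 0.047, edgeR adjusted p = 4.7e-10). Igf2r, the mannose 6-phosphate/IGF2 receptor that proliferin binds, had 637 and 701 counts in fasted, against 6094 and 6006 counts in non-fasted libraries, and fell, with a log2 fold change of -1.22 (SE 0.044). Of all 15 genes for receptors and signalling, 7 rose (46.7%, against 37.2% of all genes tested), 6 fell (40.0%, against 45.0%) and 2, M6pr and Shc1, did not pass the test with median-of-ratios scaling, the scaling used unless another is named. The median log2 fold change was 0.07, against -0.13 over all genes tested.

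The 4 feedback inhibitors on the list, which cytokine signalling induces, were split, with Cish and Socs2 higher and Socs1 and Socs3 lower. Cish had 361 and 396 counts in fasted libraries, against 276 and 297 counts in non-fasted libraries (log2 fold change 2.35, SE 0.080), and Socs2 had 775 and 804 counts in fasted, against 623 and 593 counts in non-fasted libraries (2.33, SE 0.048). The growth hormone receptor gene Ghr rose by 1.84, Stat5b by 1.25, the phosphatase gene Ptpn6 by 0.79 and Stat5a by 0.55, and the last 3 turned lower when scaled to hepatocyte markers. Those that fell were the kinase gene Jak2 (-0.62), the adaptor gene Grb2 (-0.56), Stat3 (-0.27), and the inhibitors Socs1 (-2.44), which had 2 counts in each fasted library, and Socs3 (-0.39). The call of Socs3 was lost with DESeq2, with no filter, and without fasted library 1 (-0.17), non-fasted library 1 (-0.47) or non-fasted library 2 (-0.34), and that of Stat5a with total-count scaling (0.05).

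These directions depended on the scaling, and the hepatocyte markers differed as well. With median-of-ratios scaling fasted libraries had higher levels of all 14, at a median log2 difference of 1.78. With the 14 set equal as a group, 6 of them passed the test as higher and 6 as lower. When the libraries were scaled to these 14 markers, which moved the median of all genes by -1.78, the receptor and signalling list gave 3 genes higher and 11 lower. Of all 15470 genes tested, 703 were higher and 13964 lower under this scaling. Prlr was then higher by 0.23, Socs2 by 0.55 and Cish by 0.58, while Ghr at 0.06 did not pass the test and Stat5a (-1.23), Stat5b (-0.53) and Ptpn6 (-0.99) turned lower. The 8 tested lactogen, proliferin and prolactin-like genes and the 15 other tested family genes were lower under either scaling. This was fixed by the choice of the 8 genes. It was also fixed for the 15 others, of which 13 had no fasted count and the rest a single one. These calls therefore do not measure how robust the difference is.

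**Figure D4:**
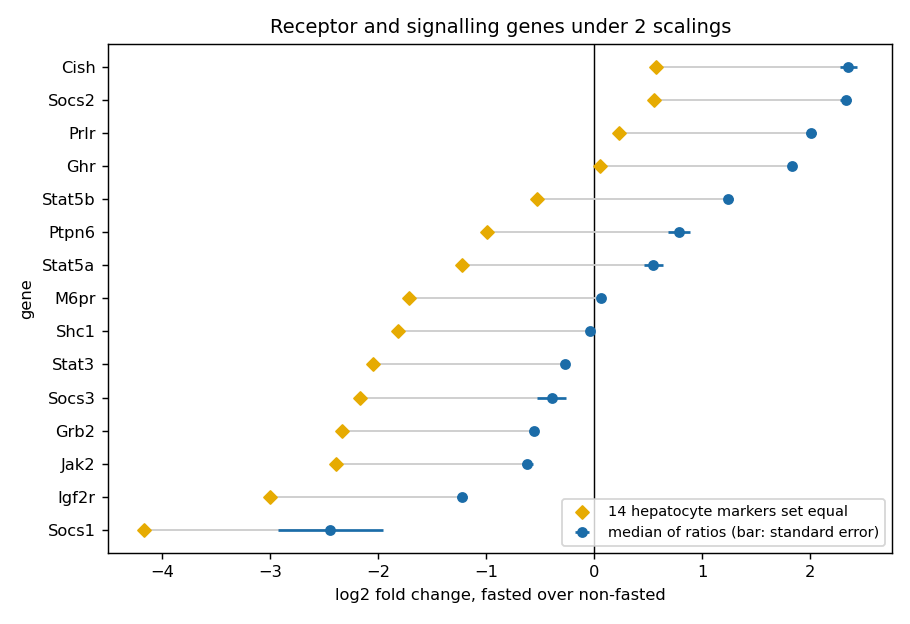
Values of the 15 receptor and signalling genes as log2 fold changes (fasted over non-fasted) after median-of-ratios scaling (blue, bars are standard errors) and with the 14 hepatocyte markers set equal (yellow). Cish, Socs2 and Prlr stand right of 0 under both, and Stat5b, Ptpn6 and Stat5a cross from right to left.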

How the data were processed

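The authors deposited raw counts per Entrez gene for each library, with no normalization. Their processing notes name Trimmomatic, STAR, featureCounts, FastQC, MultiQC and DESeq2 1.32.0 with build GRCm39. The strand setting, the read length and the rule for multi-mapping are stated in no source used here. Gene names came from a RefSeq table of an earlier build, and 1904 genes had none.

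Counts were tested in R 4.3.3 with edgeR 4.0.16 (quasi-likelihood, two-sided, median-of-ratios scaling, filterByExpr, Benjamini-Hochberg at 0.05), with limma 3.58.1 and DESeq2 1.42.0. The fit was tried on simulated data of 15225 genes at the depths of these libraries. It found 66 of 81 genes set to a 1.5-fold difference, 56 of 58 set to 2-fold and 60 of 61 set to 4-fold. It made 6 wrong calls. The simulation changed few genes, in both directions, and held no shift in composition. In the data most genes were called and the scaling moved all of them, so the simulation cannot give the error of the calls here. Alternatives were other scalings, filters and tools, a replicate block, leaving out each library, per-transcript length, and copies scaled up for shared windows, the last 2 chosen after seeing the data. The floor for a count of 0 was 3 counts over the group, and intervals are at 95%. A permutation of 2 against 2 libraries cannot go below p = 0.333 and was not used.

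The genes and lists were chosen with earlier results of these data known. Named genes were all 10, the family list, up to 4 genes of each other list by mean count or against their list, and the 10 most alike. Further examples by role were chosen after their values were seen. Protein sequences were not used here, and coding identity took their place. Python 3.11.15, scipy 1.17.1, Biopython 1.88 and matplotlib 3.10.9 were used.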

Additional observations from a re-analysis of the deposited data

How the results depend on the processing

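With the libraries scaled to the 14 hepatocyte markers, 13964 of 15470 genes tested were lower and 703 higher in fasted libraries. The numbers were 6965 and 5756 with median of ratios, and with total counts 3551 were higher. Scaled to hepatocyte markers, the receptor and signalling list had 3 genes higher and 11 lower. With hepatocyte markers or total counts 1 placental, decidual or pituitary marker was higher, against 2 with median of ratios. With hepatocyte markers the log2 fold changes of Stat5a (-1.23), Stat5b (-0.53), Ptpn6 (-0.99) and M6pr (-1.71) were below 0, and that of M6pr also with total counts (-0.44). With total counts Stat5a lost its call (0.05, edgeR adjusted p = 0.65) and Shc1 gained one (-0.54, edgeR adjusted p = 1.3e-06). The summed CPM of the 14 hepatocyte markers itself differed between the groups, and the share of hepatocytes was not measured.

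Without the 20 most abundant genes, the share of the 10 genes was 0.517% and 0.521%, because Prl3b1 was among those left out. With the copies scaled up for shared windows, an alternative chosen after seeing the data, Prl3b1 over the Prl3d copies was 871 and 910 with windows of 50 bases and 1486 and 1544 with 100. Prl3b1 over the Prl2c copies was 2.75 and 2.72 with 50 bases and 4.55 and 4.50 with 100, and the Prl2c over the Prl3d copies 317 and 334 with 50 bases and 327 and 343 with 100. Leaving out 1 library at a time, 8 to 9 of the 10 genes were called lower. Such a fit leaves 1 library in a group, which is assumed to vary like the other group. Then 6066 to 6288 genes were lower and 5192 to 5311 higher. Replicate numbers did not pair the libraries (r = -0.004 over 11341 genes), and with a replicate block 8 of the 10 genes, 15 other family genes, 6929 genes lower and 5743 higher were called. Under every setting the calls of the 10 genes and of the family were fixed by the choice of the genes and their near-absent fasted counts. Of 2 groups of 2 libraries no further split was made. Depth limits Prl3d2, Prl3d3 and Prl, and shared sequence limits the values of the copies.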
